A study of Homo sapiens with 4 samples.

Results

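The genes described here are the heat shock proteins, the J-domain co-chaperones (DNAJ genes), BAG1 to BAG6, alpha-B crystallin (CRYAB) and the heat shock factors HSF1 and HSF2. They were taken by gene symbol from the protein-coding genes of the raw count table, and 85 genes of 63241 in the table, of which 20073 were protein-coding, met the rule. RNA-seq counts were compared between 2 control libraries of FT190 cells carrying the PLKO vector and 2 libraries of FT190 cells expressing the shRNA labelled SMARCA4_sh1 against SMARCA4, the ATPase of BAF chromatin remodelling complexes. Both groups are labelled WT in genotype, were grown in RPMI with serum, and are labelled as an ovarian epithelial cell type. FT190 cells are known as immortalised secretory cells of the human fallopian tube, and the comparison rests on this 1 line and 1 named shRNA. The labels do not say whether replicates were separate cultures, so the p-values below reflect the spread between these libraries alone, and that spread may be purely technical. In bulk RNA, fewer cells expressing a gene and less of its RNA per cell cannot be told apart.

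Chaperones bind unfolded or partly folded proteins and keep them from aggregating. HSP70 proteins do this in cycles of ATP hydrolysis. J-domain proteins deliver clients and start hydrolysis, and exchange factors such as HSP110 and several BAG proteins release the nucleotide. HSP90 acts later on signalling clients, the HSP60 and HSP10 chaperonin folds proteins inside mitochondria, and small heat shock proteins hold unfolded proteins without ATP. HSF1 switches on the inducible members when proteins unfold in the cytosol, whereas the endoplasmic reticulum has its own members under the unfolded protein response.

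SMARCA4 stood at 171 and 162 counts scaled to library size (CPM, in units of 1e+06 counts) in the control libraries and at 34 and 36.3 CPM in the shSMARCA4 libraries. Its log2 fold change, shSMARCA4 over control as everywhere below, was -2.24 ± 0.0524 (SE), with a Benjamini-Hochberg adjusted p of 1.86e-07 in edgeR's quasi-likelihood test. The 4 libraries held between 27137414 and 33641343 counts, and the 85 chaperone genes took 1.73% to 1.85% of them. The secretory marker PAX8 was present at 57.4 to 63.5 CPM, whereas the ciliated marker FOXJ1 had at most 0.0362 CPM. Summed levels of 10 secretory markers, mostly KRT7, KRT8 and KRT18, were 1867 and 1762 CPM in controls and 1271 and 1274 CPM in shSMARCA4 libraries. Those of 10 fibroblast or smooth muscle markers, mostly COL1A1, were 2274 and 2321 CPM against 1681 and 1811 CPM. Of the 9 secretory markers tested, WT1 rose (log2 fold change 0.35) and 4 fell, KRT7 (-0.97), MSLN (-0.69), KRT8 (-0.44) and KRT18 (-0.23). PAX8 was not called (0.11). Of these lists, 3 secretory and 4 fibroblast or smooth muscle markers were under 1 CPM. Ciliated (1.56 to 2.26 CPM), immune (23.2 to 25.6 CPM, with CD79A at 0) and endothelial markers (0.794 to 1.12 CPM) were low in every library. Of the 7 fibroblast or smooth muscle markers tested 6 were lower, with a median log2 fold change of -1.07, beside 15.8% of all genes tested. They included LUM (219 and 237 CPM against 107 and 110 CPM), ACTA2 (39.8 and 33.3 against 12.2 and 14.5), CNN1 (19.1 and 14.4 against 3.49 and 2.90) and PDGFRB (22.9 and 28.0 against 15.2 and 16.7). DES, also called lower, had 17 and 13 counts in controls and 0 and 3 counts in shSMARCA4 libraries. It passed the filter on low counts through the controls alone. The part of these marker shifts in the chaperone results, the small heat shock proteins included, was not tested.

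A total of 72 of the 85 genes passed the filter on low counts and were tested, and 10 rose while 16 fell at an adjusted p under 0.05. Of all 18781 genes tested, 13.8% were called higher and 15.8% lower, or 29.7% in either direction, and of the protein-coding genes tested 16.8% were higher and 19.2% lower. The 26 called chaperone genes, 36.1% of those tested, lay near the 36.0% of protein-coding genes called. With counts scaled by library totals alone the split among chaperone genes was 19 rises and 14 falls, beside 3621 and 2468 among all genes. The split also shifted with the library left out, among chaperone genes and among all genes. Reads were counted without regard to strand. With exons of all GENCODE release 29 transcripts merged, 45 of the 85 genes overlap exons of another gene. The counts rest on 1 release 45 entry per gene, so how many of the 45 share counted reads was not determined. The highest called rise was 0.33 on the log2 scale, a fold of 1.25. Falls reached -0.90 in HSPB1, and -2.0 in CRYAB, which has few counts and passed the filter through the controls. Of the 72 tested genes, 0 rose by 0.5 or more on the log2 scale and 7 fell to -0.5 or lower, beside 3.85% and 6.21% of all genes tested. Those 7 were among 16 called falls, and over all genes 1166 of 2976 called falls were of that size. The median log2 fold change was 0.21 among the called rises and -0.39 among the called falls, beside 0.32 and -0.38 for protein-coding genes, and it was 0.02 over all 72 chaperone genes. In 50 of the 72 genes (69.4%) the control and shSMARCA4 libraries did not overlap, beside 65.9% of all genes and 71.0% of protein-coding genes tested.

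**Figure D1:**
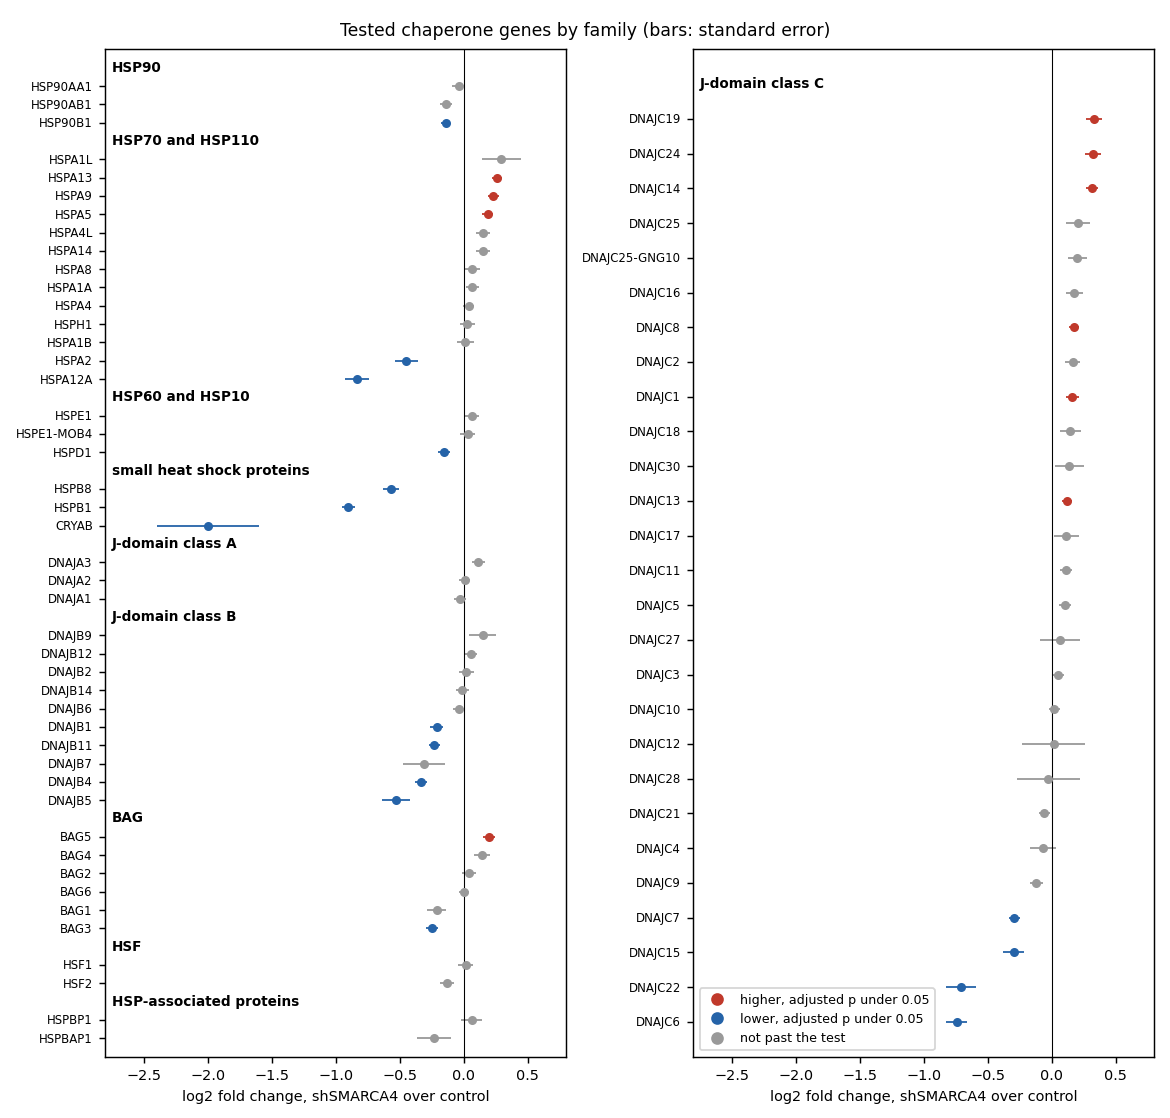
Log2 fold change (shSMARCA4 over control, x axis) of the 72 tested chaperone genes by family, with bars for the standard error, red for rises and blue for falls past an adjusted p of 0.05. The 3 tested small heat shock proteins lie lowest as a family, from -2.0 to -0.57, while no gene lies above 0.33.

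Of the 9 small heat shock protein genes 3 were tested and called lower, HSPB1 and HSPB8 at well-measured levels and CRYAB on few counts. HSPB1 (HSP27, ENSG00000106211.10, chromosome 7, 76302688 to 76304260, plus strand, hg38), which caps unfolded proteins and binds actin filaments, stood at 84.4 and 78.5 CPM in controls and at 43.2 and 43.9 CPM in shSMARCA4 libraries. Each group was tight and the groups were far apart. The log2 fold change was -0.90 ± 0.0525 (edgeR adjusted p = 1.05e-05), or 1.87-fold lower. HSPB8 (HSP22, chromosome 12, 119178931 to 119194746, plus strand), the partner of BAG3 in sending damaged proteins to autophagy, stood at 37.7 and 34.8 CPM in controls against 24.4 and 24.5 CPM, again without overlap. Its log2 fold change was -0.57 ± 0.0631 (edgeR adjusted p = 0.000268). CRYAB, the alpha-B crystallin best known from lens and muscle, was near the detection floor, with 30 and 35 counts in controls and 10 and 4 counts in shSMARCA4 libraries. Its log2 fold change of -2.0 ± 0.397 (edgeR adjusted p = 0.00539) rests on those few counts, and it passed the filter of 0.327 CPM in both controls but in only 1 shSMARCA4 library. CRYAB exons also overlap those of HSPB2 on the opposite strand, although HSPB2 had at most 1 count in any library. The other 6 genes of the family (HSPB2, HSPB2-C11orf52, HSPB3, HSPB6, HSPB7 and HSPB9) were too low to test, at no more than 0.186 CPM. Summed over the 9 genes, small heat shock protein RNA went from 124 and 115 CPM to 68.2 and 68.8 CPM, a decrease of 42.5%.

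The sequence before the HSPB1 start is shown because this gene had the smallest adjusted p of the chaperone genes. It is the 250 bases before the RefSeq start, at chr7:76302423-76302672 of GRCh38.p14, plus strand, 5′ to 3′. Capitals mark the one match to a pair of inverted GAA units of the kind HSF proteins bind, GAANNTTC, at 182 to 175 bases before the start.
HSPB1: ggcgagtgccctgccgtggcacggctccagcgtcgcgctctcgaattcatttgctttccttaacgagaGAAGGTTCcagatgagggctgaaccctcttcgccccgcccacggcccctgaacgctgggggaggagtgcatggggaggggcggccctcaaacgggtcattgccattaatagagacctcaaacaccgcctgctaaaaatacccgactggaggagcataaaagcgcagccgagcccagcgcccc
HSPB8 holds a match to the same pair at 88 to 81 bases before its start, shown with its surroundings from chr12:119178832-119178861, plus strand, and a second match lies just after the start.
HSPB8: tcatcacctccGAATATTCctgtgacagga
A pair of this kind, in either order (GAANNTTC or TTCNNGAA), was found in 13.5% of all 35116 RefSeq promoter windows of 300 bases, so a match on its own is common.

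**Figure D2:**
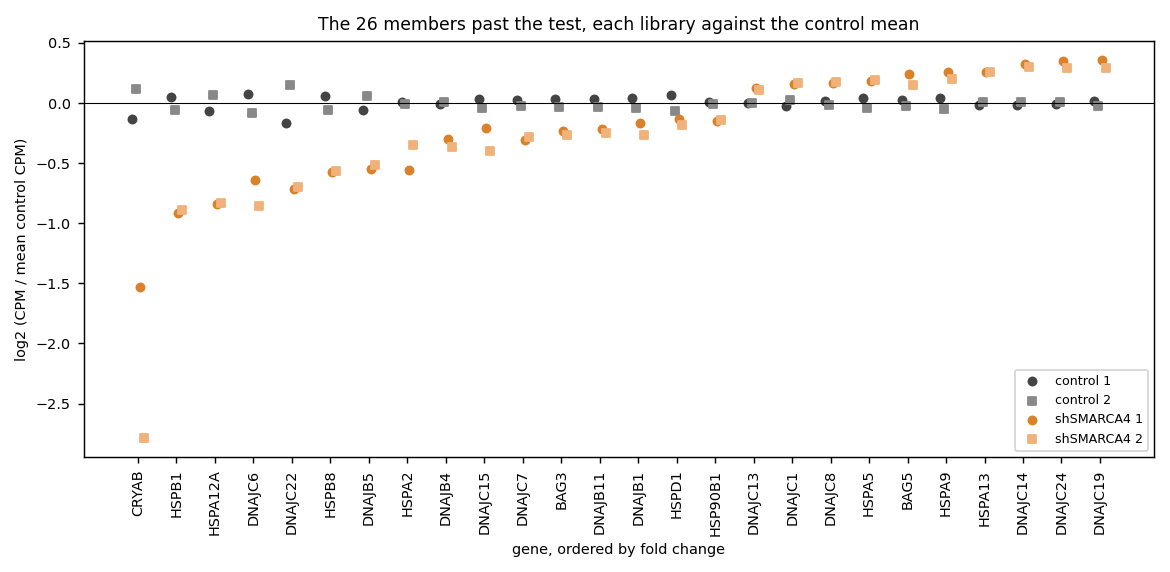
Each library's CPM relative to the mean control CPM (log2, y axis) for the 26 chaperone genes past the test, ordered by fold change. Control libraries (grey) lie around 0 and the shSMARCA4 libraries (orange) lie apart from both, with the widest spread for CRYAB.

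Among the 13 tested HSP70 and HSP110 genes, 3 rose and 2 fell, and the rises were in organelle forms. HSPA9 (mortalin, chromosome 5, 138554888 to 138575421, minus strand), the HSP70 of the mitochondrial matrix, stood at 715 and 672 CPM in controls and at 831 and 796 CPM in shSMARCA4 libraries. Both shSMARCA4 values lay above both controls, with a log2 fold change of 0.23 ± 0.0445 (edgeR adjusted p = 0.00467). HSPA13, a microsomal HSP70, rose from 132 and 134 CPM to 159 and 158 CPM, a log2 fold change of 0.26 ± 0.0396 (edgeR adjusted p = 0.00141). HSPA5 (BiP, chromosome 9, 125234860 to 125241344, minus strand), the HSP70 of the endoplasmic reticulum, stood at 653 and 615 CPM in controls and at 719 and 723 CPM after knockdown. The groups did not overlap, and the log2 fold change was 0.19 ± 0.0419 (edgeR adjusted p = 0.00981). The HSPA5 call was lost when either shSMARCA4 library was left out, with values between 0.14 and 0.24 over the 4 fits that each left out 1 library.

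The 2 HSP70 genes that fell are low-level members. HSPA12A, a distant HSP70 relative on chromosome 10 (116671192 to 116849741, minus strand), stood at 13.6 and 14.9 CPM in controls and at 7.94 and 8.01 CPM in shSMARCA4 libraries. The groups were well apart, at -0.84 ± 0.0946 on the log2 scale (edgeR adjusted p = 0.000295). HSPA2, an HSP70 known from spermatogenesis, stood at 18.4 and 18.1 CPM against 12.4 and 14.3 CPM (log2 fold change -0.45 ± 0.0881, edgeR adjusted p = 0.00502).

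The cytosolic HSP70 genes that carry most of the family's RNA did not pass the test. HSPA8 (HSC70), the constitutive form, stood at 3024 and 2642 CPM in controls and at 3021 and 2910 CPM in shSMARCA4 libraries. Control 1 and shSMARCA4 library 1 were nearly equal, and the log2 fold change was 0.07 ± 0.0594 (edgeR adjusted p = 0.446). HSPA1A, the stress-inducible form, stood at 38.4 and 37.8 CPM against 39.1 and 40.6 CPM, and its near-identical neighbour HSPA1B at 52.8 and 47.2 CPM against 52.6 and 48.2 CPM. Reads of this pair may have been split between the genes; with their counts summed, the log2 fold change was 0.04 ± 0.0490 (edgeR adjusted p = 0.632). HSPH1 (HSP110), which releases nucleotide from HSP70, overlapped between groups at 365 and 323 CPM against 359 and 342 CPM (log2 fold change 0.03, edgeR adjusted p = 0.784). HSPA6, which is transcribed mainly under severe stress, had 4 counts in each control and 12 and 7 counts after knockdown, too few for the filter. The summed level of the family was 5605 and 5063 CPM in controls against 5808 and 5631 CPM.

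Of the 3 HSP90 genes, the form of the endoplasmic reticulum fell. HSP90B1 (GRP94, chromosome 12, 103930358 to 103947912, plus strand) stood at 1590 and 1578 CPM in controls and at 1429 and 1439 CPM in shSMARCA4 libraries. This gap was small but clear of the spread, at -0.14 ± 0.0361 (edgeR adjusted p = 0.0162). The call was lost when counts were scaled by library totals alone (-0.09) and when either shSMARCA4 library was left out. HSP90AA1, the stress-inducible cytosolic form, stood at 4901 and 4412 CPM against 4586 and 4475 CPM, inside the control range (log2 fold change -0.04, edgeR adjusted p = 0.607). HSP90AB1, the constitutive cytosolic form, stood at 2540 and 2318 CPM against 2235 and 2179 CPM. Both of its shSMARCA4 values were below both controls, and the log2 fold change of -0.14 ± 0.0482 missed the threshold (edgeR adjusted p = 0.0590).

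In the mitochondrial chaperonin, HSPD1 (HSP60) stood at 756 and 690 CPM in controls and at 660 and 638 CPM after knockdown. The groups did not overlap, but the fall of -0.16 ± 0.0496 (edgeR adjusted p = 0.0419) was lost in 6 of 10 alternative fits, among them those without either shSMARCA4 library. HSPE1 (HSP10), which caps the HSP60 ring, stood at 96.0 and 84.9 CPM against 94.3 and 94.1 CPM (log2 fold change 0.06, edgeR adjusted p = 0.496). It shares 192 exon bases with the readthrough gene HSPE1-MOB4, and reads over them cannot be assigned to either gene.

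With each protein assigned to a compartment from general knowledge, the cytosol or nucleus held 3 rises and 9 falls among 39 tested genes. The endoplasmic reticulum held 4 rises and 2 falls among 13, the mitochondrion 2 and 2 among 9, the vesicles and endosomes 1 and 1 among 3, and the 8 tested genes not assigned held 0 and 2. Median log2 fold changes were 0.01, 0.14, 0.11, 0.10 and -0.02 in that order, and no difference between compartments was tested. The cytosol or nucleus had 7.69% higher and 23.1% lower, and the endoplasmic reticulum 30.8% and 15.4%. Of protein-coding genes tested, 16.8% were higher and 19.2% lower, and the compartments hold few genes each. The endoplasmic reticulum was itself divided. HSPA5, HSPA13, DNAJC1 and DNAJC14 rose while HSP90B1 and DNAJB11 fell, and the summed level of its 13 genes was 2964 and 2901 CPM in controls against 2903 and 2907 CPM. The mitochondrion showed the same mixture, with HSPA9 and DNAJC19 higher and HSPD1 and DNAJC15 lower.

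**Figure D3:**
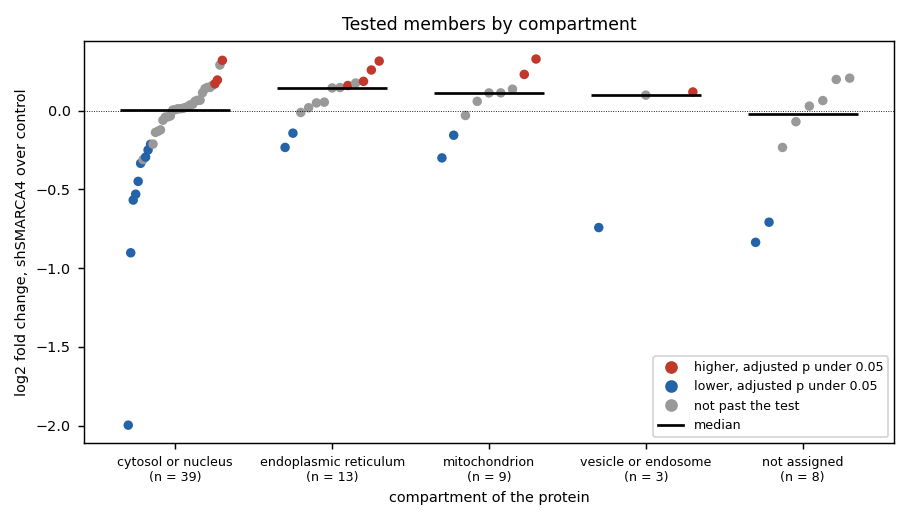
Log2 fold change (shSMARCA4 over control, y axis) of each tested chaperone gene by compartment, with a black line at the median and red or blue points for rises or falls past the test. Endoplasmic reticulum and mitochondrial points reach from -0.30 to 0.33, whereas the falls below -0.5 are in the cytosol, vesicle and not assigned columns.

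The J-domain genes, 40 tested of 45, held 6 rises and 8 falls. All 6 rises were in class C, whose members share only the J domain. Class C also held 27 of the 40 tested genes and 4 of the falls. Its shares, 22.2% higher and 14.8% lower, stood beside 16.8% and 19.2% of protein-coding genes tested. Class B, which resembles bacterial DnaJ in part, held 4 falls among 10 and no rise. DNAJC6 (auxilin), which recruits HSP70 to strip clathrin from vesicles, stood at 41.6 and 37.3 CPM in controls and at 25.3 and 21.8 CPM in shSMARCA4 libraries. The groups were far apart relative to their spread, at -0.74 ± 0.0825 (edgeR adjusted p = 0.000268). DNAJC22 stood at 12.1 and 15 CPM against 8.25 and 8.33 CPM (log2 fold change -0.71 ± 0.118, edgeR adjusted p = 0.00219). In class B, DNAJB5 stood at 7.74 and 8.40 CPM against 5.52 and 5.65 CPM (log2 fold change -0.53 ± 0.111, edgeR adjusted p = 0.00704). DNAJB4, a cytosolic HSP70 partner close in sequence to DNAJB1 and DNAJB5, stood at 65.7 and 66.4 CPM against 53.6 and 51.2 CPM (log2 fold change -0.33 ± 0.0476, edgeR adjusted p = 0.000944). For each of these genes both shSMARCA4 libraries lay below both controls.

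DNAJB1 (HSP40), the main inducible partner of cytosolic HSP70, fell from 134 and 126 CPM to 116 and 109 CPM, at -0.21 ± 0.050 (edgeR adjusted p = 0.0114). That call was lost without shSMARCA4 library 2 and with no filter on low counts. DNAJB11, a partner of HSPA5 in the endoplasmic reticulum, fell from 137 and 131 CPM to 115 and 113 CPM (log2 fold change -0.23, edgeR adjusted p = 0.00376). DNAJB9, another partner of HSPA5, stood at 7.16 and 7.47 CPM against 7.84 and 8.37 CPM, and DNAJC3, an inhibitor of stress kinases such as PERK, at 92.5 and 88.4 CPM against 94.3 and 92.8 CPM. Neither passed the test (log2 fold changes 0.15 and 0.05, edgeR adjusted p = 0.331 and 0.449). DNAJA1, the class A partner of HSP70 in the cytosol, overlapped between groups at 362 and 338 CPM against 349 and 336 CPM (log2 fold change -0.03, edgeR adjusted p = 0.629).

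The rises of class C were 0.31 to 0.33 on the log2 scale in 3 genes and 0.12 to 0.17 in the other 3. DNAJC19, a part of the motor that pulls proteins into the mitochondrial matrix, rose from 21.1 and 20.5 CPM to 26.8 and 25.5 CPM (log2 fold change 0.33 ± 0.0650, edgeR adjusted p = 0.00531). DNAJC15, its relative at the same membrane, moved the other way, from 24.9 and 23.6 CPM to 21.0 and 18.4 CPM (log2 fold change -0.30 ± 0.0800, edgeR adjusted p = 0.0206), a call lost without shSMARCA4 library 2, with DESeq2 and with no filter on low counts. DNAJC24, needed to make diphthamide on elongation factor 2, rose from 22.4 and 22.6 CPM to 28.7 and 27.5 CPM (log2 fold change 0.32, edgeR adjusted p = 0.00471). In these genes, too, no shSMARCA4 library overlapped a control. DNAJC14 of the endoplasmic reticulum membrane rose from 46.7 and 47.4 CPM to 59.0 and 58.1 CPM (log2 fold change 0.31), but 23.2% of its exon bases lie in the overlapping gene AC023055.1 on the same strand, and reads of the pair cannot be told apart. The splicing-associated DNAJC8, the membrane protein DNAJC1 and the endosomal DNAJC13 rose by 0.17, 0.16 and 0.12 on the log2 scale. All 3 calls were lost when either shSMARCA4 library was left out, and those of DNAJC1 and DNAJC13 also with DESeq2 and with no filter on low counts. DNAJC7, a co-chaperone that binds both HSP70 and HSP90, fell by 0.29 on the log2 scale (edgeR adjusted p = 0.00117).

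Among the 6 BAG genes, BAG3 and BAG5 passed the test in opposite directions. BAG3, which joins HSP70 to HSPB8, stood at 64.9 and 62.0 CPM in controls and at 54.0 and 52.8 CPM in shSMARCA4 libraries. It fell by 0.25 on the log2 scale (SE 0.0484, edgeR adjusted p = 0.00474), so that both partners of this pair were lower. BAG5, which carries several BAG domains, rose from 104 and 101 CPM to 121 and 113 CPM (log2 fold change 0.19, edgeR adjusted p = 0.0134), a call lost without shSMARCA4 library 1 and with no filter on low counts. BAG1, BAG2, BAG4 and BAG6 lay between -0.21 and 0.14 and were not called, and 42.7% of BAG2 exon bases lie within RAB23 on the opposite strand.

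Neither heat shock factor passed the test. HSF1, the factor that drives the response to unfolded cytosolic protein, stood at 28.9 and 27.5 CPM in controls and at 28.1 and 28.8 CPM in shSMARCA4 libraries. The groups overlapped (log2 fold change 0.01 ± 0.0602, edgeR adjusted p = 0.888). HSF2 stood at 40.1 and 42.1 CPM against 37.2 and 37.9 CPM (log2 fold change -0.13 ± 0.0533, edgeR adjusted p = 0.0970). RNA levels do not report HSF1 activity, which is set by its trimerisation and modification.

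HSF1 trimers bind heat shock elements, runs of alternating inverted GAA units. RefSeq promoter windows of GRCh38.p14, from 250 bases before to 50 after a start, were found for 74 of the 85 genes and searched on both strands for 3 units in a row, GAANNTTCNNGAA. The motif was present in 0.490% of all 35116 promoters. It was in those of 7 of the 74 genes (9.46%), untested genes included, against 0.473% of the tested protein-coding genes with a promoter. Windows of 30 bases around matches are shown for the matches that lie before a RefSeq start, so that they can be read beside the results of each gene. RefSeq starts were not matched to the starts of the counted genes. Both HSP90AB1 windows lie inside the counted gene, which begins at 44247087. Capitals mark the match as read on the gene's strand, 5′ to 3′.
HSPA8, chr11:123062345-123062374, minus strand: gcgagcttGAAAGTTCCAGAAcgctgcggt
HSPA8, chr11:123062170-123062199, minus strand: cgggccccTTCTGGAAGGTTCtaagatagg
HSP90AA1, chr14:102087111-102087140, minus strand: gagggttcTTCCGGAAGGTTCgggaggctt
HSP90AB1, chr6:44247770-44247799, plus strand: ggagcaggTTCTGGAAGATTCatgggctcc
HSP90AB1, chr6:44247823-44247852, plus strand: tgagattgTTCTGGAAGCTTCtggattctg
HSPD1, chr2:197500059-197500088, minus strand: attttctgGAAAGTTCTGGAAccgagcgag
DNAJB6, chr7:157336865-157336894, plus strand: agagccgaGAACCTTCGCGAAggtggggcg
HSPA6, chr1:161524458-161524487, plus strand: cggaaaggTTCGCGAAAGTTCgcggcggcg
The seventh gene, DNAJA1, has its match just after the start. HSPA8 and HSP90AB1 hold 2 separate matches each, and in HSPD1 an overlapping match lies on the other strand. Of the 6 tested genes with the motif, 0 rose and HSPD1 fell, with a median log2 fold change of -0.04 and a range of -0.16 to 0.07. The shorter pair of units was found in 23 of the 74 genes (31.1%), untested genes included, against 13.98% of the tested protein-coding genes. Of the 19 of these that were tested, 1 rose (HSPA9) and 7 fell, HSPB1, HSPB8, DNAJB1, DNAJB4, DNAJC6, DNAJC15 and HSPD1. Of protein-coding genes tested, 16.8% rose and 19.2% fell, and calls among other genes with the pair were not counted. The HSPA9 match spans the start, and that of DNAJC6 follows a RefSeq start that lies inside the counted gene. The HSPA1A match also lies in the window of HSPA1L on the opposite strand, so 1 stretch counts for both genes. In HSPA1A and HSPA1B, which did not pass the test, the pair sits in nearly the same sequence.
HSPA1A, chr6:31815426-31815455, plus strand: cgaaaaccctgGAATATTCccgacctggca
HSPA1B, chr6:31827622-31827651, plus strand: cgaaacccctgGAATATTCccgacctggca
A match is a description of the sequence, and binding of HSF1 was not measured. Only exact matches inside these windows were searched for, so a gene without one may still hold an element.

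The endoplasmic reticulum stress element was searched for in the same way, since HSPA5 and HSP90B1, the main chaperones of that compartment, moved in opposite directions. The motif, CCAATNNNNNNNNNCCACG, was in 0.0769% of all promoters, and in 2 of the 74 chaperone genes, these same genes. Capitals mark the match in each window, and the second HSP90B1 window reads on the opposite strand.
HSPA5, chr9:125241385-125241414, minus strand: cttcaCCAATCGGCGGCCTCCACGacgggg
HSP90B1, chr12:103930211-103930240, plus strand: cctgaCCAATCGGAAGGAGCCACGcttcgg
HSP90B1, chr12:103930316-103930345, plus strand: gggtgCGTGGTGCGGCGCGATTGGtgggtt
HSPA5, with 1 match at 66 to 48 bases before its start, rose by 0.19 on the log2 scale, and HSP90B1, with 2 matches, fell by 0.14.

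The abundant chaperones differed between the control libraries. Of the 72 tested genes, 50 (69.4%) were higher in control 1 than in control 2, beside 49.2% of all genes tested. At a mean level of 100 CPM or more it was 21 of 22 chaperone genes (95.5%), against 68.0% of 2404 genes of that level. The median log2 ratio of control 1 to control 2 was 0.09 for those 22 genes and 0.03 for all genes of that level. HSPA8 was 0.19, HSPH1 0.18, HSP90AA1 0.15 and HSPD1 0.13 higher in control 1 on the log2 scale. All 6 tested genes with 3 units in a row were higher in control 1, by 0.06 to 0.19. Each is among the 22 chaperone genes at 100 CPM or more, so this repeats the share given for those. In 23 of the 72 genes the gap between controls was larger than the fold change, and 0 of these were called. The test takes its spread from the same libraries, so a call in such a gene was unlikely beforehand. The share of such genes over the whole table was not computed. Mitochondrially encoded genes took 3.31% of counts in control 1 and 4.06% in control 2, and the part of this difference in the gap was not tested. With 1 library left out at a time, the HSPA8 log2 fold change ran from -0.03 to 0.17 and that of HSP90AA1 from -0.11 to 0.04. That of HSPH1 ran from -0.06 to 0.12 and that of HSPE1 from -0.03 to 0.16.

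**Figure D4:**
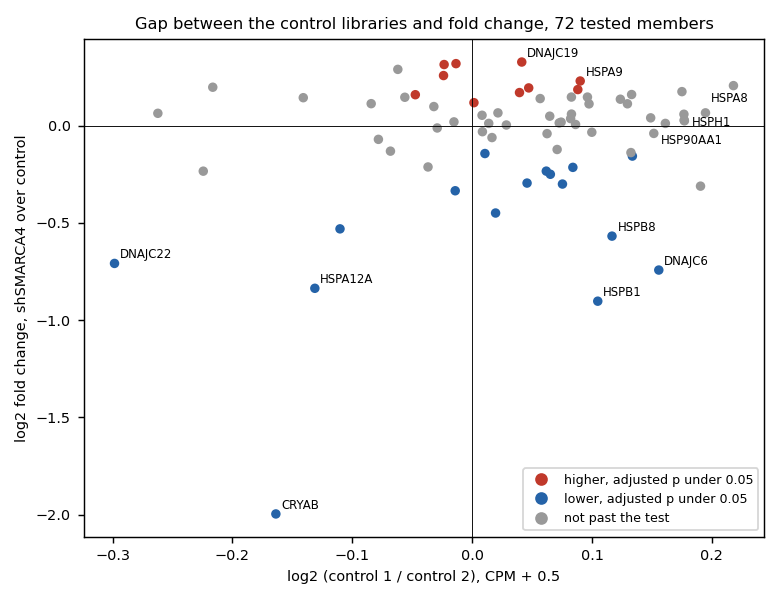
Log2 ratio of control 1 to control 2 (CPM + 0.5, x axis) against the log2 fold change of shSMARCA4 over control (y axis) for the 72 tested chaperone genes, coloured by call. HSPA8, HSPH1 and HSP90AA1 lie to the right near a fold change of 0, while HSPB1, HSPB8 and DNAJC6 lie far below it.

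Per length, the chaperone RNA pool was dominated by few genes in both groups. HSP90AA1 had 1452 CPM per 1000 exon bases in controls, HSPA8 had 1261 and HSP90AB1 949, followed by HSP90B1 at 481 and HSPD1 at 225. These 5 genes kept their order after knockdown, at 1413, 1320, 863, 435 and 202. Their order was not tested. HSPB1 ranked 14 among the 85 genes in controls at 56.1 and 21 after knockdown at 30.01. All 85 genes summed to 19002 and 17522 CPM in controls and to 18254 and 17817 CPM after knockdown, values that overlap.

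**Figure D5:**
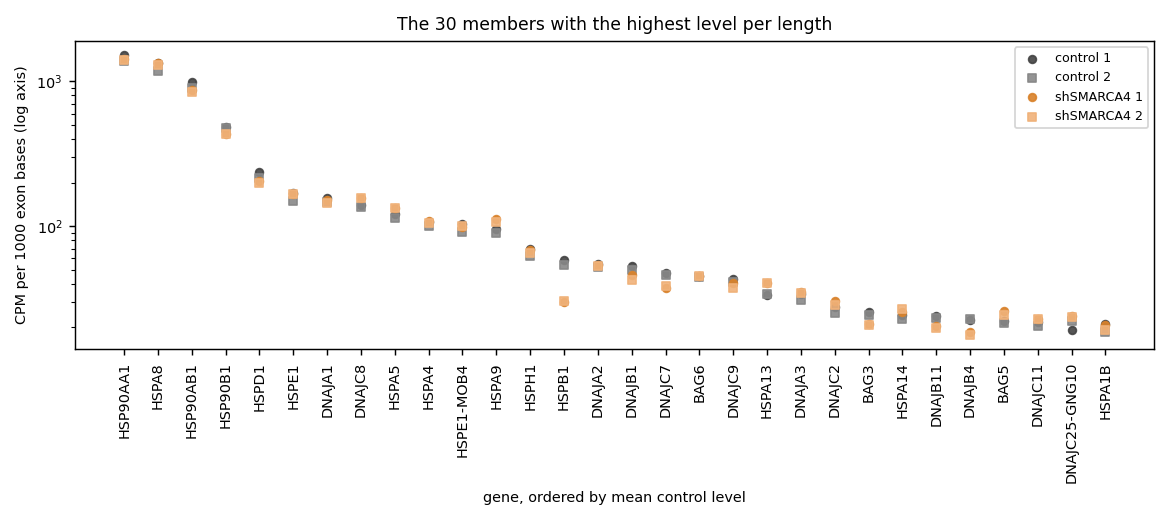
Level per length (CPM per 1000 exon bases, log axis) in each library for the 30 chaperone genes with the highest mean control level, in falling order. Library points of most genes lie on top of each other, and those of HSPB1 separate, with shSMARCA4 libraries near 30.01.

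Other genes of the folding pathways were read from fixed lists. Over their 74 genes, all tested, 17.6% rose and 18.9% fell, near the shares of protein-coding genes given above. Of 13 co-chaperones of HSP90, 3 rose and 3 fell. PTGES3 (p23), which stabilises the closed HSP90 clamp, stood at 648 and 613 CPM in controls and at 450 and 437 CPM after knockdown (log2 fold change -0.51 ± 0.0424, edgeR adjusted p = 5.95e-05). FKBP4, which links HSP90 to steroid receptors, fell by 0.38 on the log2 scale and UNC45A, a myosin chaperone, by 0.20, while CDC37L1, SGTA and FKBP5 rose by 0.44, 0.25 and 0.14. Of 9 further HSP70 cofactors, HYOU1, an exchange factor of HSPA5, rose from 143 and 137 CPM to 167 and 166 CPM (log2 fold change 0.25 ± 0.0415, edgeR adjusted p = 0.00222). GRPEL2, an exchange factor of mitochondrial HSP70, fell (-0.48 ± 0.0583, edgeR adjusted p = 0.000410). In both, shSMARCA4 libraries lay clear of the controls, whereas GRPEL1, the other mitochondrial exchange factor of the list, stood at 41.8 and 41.0 CPM against 42.4 and 40.2 CPM. SIL1, also in this list, was not called (log2 fold change -0.03, edgeR adjusted p = 0.724).

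The TRiC chaperonin and its partner prefoldin held 5 rises and 1 fall among 14 genes, the rises all in prefoldin subunits. VBP1, PFDN2 and PFDN4 rose by 0.23, 0.24 and 0.25 on the log2 scale, and the TRiC subunit CCT4 fell by 0.18. Of 9 genes of mitochondrial protein quality control, 0 rose and 2 fell, the proteases LONP1 (-0.15) and HTRA2 (-0.29). Of 21 genes of folding and the unfolded protein response in the endoplasmic reticulum, 3 rose and 4 fell. The stress transcription factors XBP1 (-0.24), ATF4 (-0.25) and DDIT3 (-0.35) fell, as did P4HB (-0.12), whereas EDEM1 (0.30), SEL1L (0.19), both of degradation, and the disulfide isomerase PDIA4 (0.20) rose. Of 8 other heat shock response genes, HSBP1 (-0.25), the collagen chaperone SERPINH1 (-0.20) and IER5 (-0.23) fell, and HMOX1, a heme-degrading enzyme, rose from 6.71 and 7.65 CPM to 10.6 and 10.04 CPM (log2 fold change 0.52 ± 0.107, edgeR adjusted p = 0.00608). The medians of these 6 lists ran from -0.16 to 0.02, beside -0.00451 for all genes tested.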

How the data were processed

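The authors deposited 1 table of raw counts per gene, for which HOMER's analyzeRepeats summed reads over GENCODE release 45 exons (hg38), condensed to 1 entry per gene, without normalization and without regard to strand, per the file header. Alignment with STAR 2.6.1c and the use of DESeq2 1.19.38 are named in the submitters' processing notes. The header names more libraries than the 4 with value columns, all of which were used. Genes were filtered with filterByExpr (count minimum 10), scaled by trimmed means of M values and tested with edgeR 4.0.16 in R 4.3.3 (quasi-likelihood test, two-sided, Benjamini-Hochberg adjustment over 18781 genes, threshold 0.05). Each standard error is the size of the log2 fold change over the root of its F statistic. CPM were computed from the deposited counts over the scaled library totals. Group sizes of 2 allow no exact permutation p below 0.333, so none is given. Members and lists were chosen with earlier results of these data known. Named genes were a fixed set of central members, up to 5 called per family by size of change, and up to 3 per direction in each pathway list; other members were named after their values were seen. Promoter sequences come from RefSeq (GRCh38.p14). Exon overlaps come from GENCODE release 29 with all transcripts of a gene merged, so they can differ from the exons counted. Chi-square per degree of freedom was 6.94 between controls and 1.96 between shSMARCA4 libraries, so none was counted as a duplicate. Alternatives were other scaling, other filters, DESeq2 1.42.0, a replicate block and leaving out each library. The test was checked on simulated data.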

Additional observations from a re-analysis of the deposited data

How the results depend on the processing

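Of the 26 chaperone genes called, 17 kept their call and direction in every alternative fit that gave a value, HSPB1, HSPB8, CRYAB, HSPA12A, HSPA13, HSPA9 and DNAJC6 among them. CRYAB passed the main filter through the controls and had no value under the 1 CPM filter or DESeq2, so its place among the 17 is no support. The 9 that lost it somewhere were BAG5, DNAJB1, DNAJC1, DNAJC8, DNAJC13, DNAJC15, HSP90B1, HSPA5 and HSPD1. Scaling by library totals alone raised the median of all genes by 0.05 on the log2 scale and the share of rises among all calls from 46.6% to 59.5%. It gave 19 rises among chaperone genes, and medians of -0.00895 for the HSF genes, 0.16 for J-domain class C, 0.056 for the cytosol or nucleus, 0.19 for the endoplasmic reticulum, 0.15 for vesicles or endosomes and 0.072 for all members. Uncalled genes that then changed sign were HSP90AA1 (0.0103), DNAJA1 (0.0161), DNAJC28 (0.0184), DNAJB14 (0.0376) and DNAJB6 (0.00873). With no filter on low counts 1403 genes were higher and 1784 lower, and with DESeq2 1625 and 1930. Under the 1 CPM filter, which drops CRYAB, the small heat shock protein median was -0.73. The cause of the other shifts was not tested.

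Leaving out 1 library at a time gave 1724 to 3618 genes higher and 2077 to 3828 lower, and 5 (without shSMARCA4 library 1) to 23 (without control 1) chaperone genes higher and 12 to 19 lower. A single library left in a group is then assumed to vary like the other group. Medians ran from 0.0543 to 0.17 for HSP70 and HSP110, -0.15 to -0.0657 for HSP90, 0.0868 to 0.11 for class C, -0.0735 to -0.0351 for HSF, -0.0614 to 0.0272 for the cytosol or nucleus, 0.0868 to 0.17 for the endoplasmic reticulum, -0.0899 to 0.00453 for genes not assigned and -0.0210 to 0.0619 for all members. Across all alternatives 20 uncalled genes changed sign, 0 of them past the threshold with the new sign. Over the libraries left out, values ran from -0.0287 to 0.17 for HSPA8, -0.00479 to 0.0829 for HSPA4, -0.0614 to 0.12 for HSPH1, -0.11 to 0.0429 for HSP90AA1, -0.0674 to 0.10 for HSPA1B, -0.0330 to 0.12 for BAG2, -0.0113 to 0.0228 for BAG6 and -0.0231 to 0.0563 for HSF1. They ran from -0.0833 to 0.0221 for DNAJA1, -0.0369 to 0.0551 for DNAJA2, -0.000819 to 0.0470 for DNAJB2, -0.0433 to 0.0262 for DNAJB14, -0.0190 to 0.0610 for DNAJC10, -0.0223 to 0.0514 for DNAJC12, -0.0730 to 0.22 for DNAJC27 and -0.29 to 0.18 for DNAJC28. For HSPE1, HSPE1-MOB4 and HSPBP1 they ran from -0.0276 to 0.16, -0.0580 to 0.13 and -0.0445 to 0.16.

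Same-numbered libraries deviated together with a correlation of 0.27, but the labels do not tie the numbers to a shared culture. With the replicate number as a block, 15 chaperone genes were higher and 19 lower, and 3187 and 3562 of all genes. All 26 calls were kept under the block and 8 genes were added, among them HSP90AB1. Depth limits CRYAB and the 13 untested genes.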
